A study of Mus musculus with 12 samples.

Results

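Thymic dendritic cell and macrophage genes were followed across whole thymus from mice that differed in gonadal sex and in sex chromosome complement. The 38 genes listed were looked up by symbol in the platform's gene table, and each was represented by the probe set whose mean over all arrays was highest. Of these, 37 were found among 18193 genes with a probe set of their own. Clec9a was not matched and was not analysed here. No filter on low values was applied: 32 of the 37 averaged 5 or more on the log2 scale, and 5 averaged less.

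RNA from thymus of mice aged 7 to 8 weeks had been measured on 12 one-colour Affymetrix arrays, in 4 groups of 3 biological replicates. XX females had the XX complement. XXsry males had the same complement and were male, with sry in the group's title. XY- females had a complement titled XY- and were female. XY-sry males had that complement with sry in the title and were male. Only the male groups had sry in the title, so effects of gonadal sex and of Sry itself cannot be told apart. The labels used here do not give the strain or where Sry was carried, and each thymus had been frozen whole with no sorting of cells. All values are log2 values on the authors' scale, and a difference of 1 would be a doubling. A gene was said to rise or fall where its adjusted p (limma, Benjamini-Hochberg over 45037 probe sets) was under 0.05.

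Dendritic cells and macrophages make up a small part of the thymus. Dendritic cells present antigen to developing T cells and help to delete self-reactive ones, while macrophages clear the many thymocytes that die during selection. Cross-presenting dendritic cells carry Xcr1 and depend on Batf3 and Irf8, another conventional class carries Sirpa, and plasmacytoid cells carry Siglech. Macrophages are marked by the receptor for colony-stimulating factor 1 (Csf1r), F4/80 (Adgre1) and the complement chains of C1q. Several members, among them Vcam1, Lgals3, Ctsb, Lgmn, Axl and Hpgd, are known in other cell types too. In whole tissue, fewer cells of a type and less RNA per cell cannot be told apart.

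The sex genes matched the labels: Sry lay between 5.23 and 5.65 in females and between 6.74 and 7.20 in males, and Xist between 11.10 and 11.63 in XX and between 3.41 and 4.19 in XY arrays. Array medians lay between 4.02 and 4.10, and 3 arrays in a group limit the precision. The median standard error of a member was 0.0727 for an effect averaged over both levels of the other factor, 0.103 within one level and 0.145 for the interaction. XY- female replicate 2 stood apart. Its actin 3' minus 5' difference was 0.51, against 0.66 to 0.83 in the other arrays, and its mean correlation with the other arrays was 0.9921, against 0.9945 to 0.9959. The calls of members that change without it are given both ways, and calls of other genes are given with all arrays only.

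The genes of C1q, a starting protein of the classical complement pathway and a macrophage product, lie side by side on chromosome 4 in GRCm38.p6: C1qb at 136880126 to 136886200, C1qc at 136889801 to 136892936 and C1qa at 136895916 to 136898844. PU.1, the transcription factor encoded by Spi1 that myeloid cells depend on, is known to bind sites with a GAGGAA core. The 250 bases before the transcript start are shown for the 6 members with the smallest p in the sex comparison that had an entry in the RefSeq promoter table for GRCm38.p6. They let the copies of that core be compared between these 6 members, and its letters on either strand (GAGGAA or TTCCTC) are in capitals. Slc40a1, C1qa, Vcam1 and Tyrobp, which fell in males as given below, had no entry and are not shown. Lgals3 is the only member that fell in males among the 6. Each window is printed 5' to 3' in the direction of the gene. The window of Lgals3 is chr14:47373610-47373859 on the plus strand, that of Mrc1 is chr2:14229164-14229413 on the plus strand, that of Batf3 is chr1:191098164-191098413 on the plus strand, that of C1qc is chr4:136892915-136893164 on the minus strand, that of Fcer1g is chr1:171234350-171234599 on the minus strand and that of Lyz2 is chr10:117282273-117282522 on the minus strand. For C1qc the start in the table lies 22 bases inside the outer end of the gene given above, and in the other 5 it is the outer end itself.
Lgals3: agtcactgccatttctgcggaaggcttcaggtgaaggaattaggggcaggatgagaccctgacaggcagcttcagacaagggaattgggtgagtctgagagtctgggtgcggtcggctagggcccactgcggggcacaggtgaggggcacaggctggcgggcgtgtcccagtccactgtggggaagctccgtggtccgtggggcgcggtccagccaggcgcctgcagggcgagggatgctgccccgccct
Mrc1: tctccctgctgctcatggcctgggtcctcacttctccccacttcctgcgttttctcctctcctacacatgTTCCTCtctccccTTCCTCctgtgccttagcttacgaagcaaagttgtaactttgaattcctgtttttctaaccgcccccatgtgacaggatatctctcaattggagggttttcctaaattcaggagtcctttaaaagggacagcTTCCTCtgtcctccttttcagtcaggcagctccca
Batf3: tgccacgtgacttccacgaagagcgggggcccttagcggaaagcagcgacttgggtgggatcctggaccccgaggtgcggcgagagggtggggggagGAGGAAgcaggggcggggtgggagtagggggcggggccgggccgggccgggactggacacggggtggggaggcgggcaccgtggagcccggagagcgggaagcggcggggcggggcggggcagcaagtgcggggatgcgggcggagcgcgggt
C1qc: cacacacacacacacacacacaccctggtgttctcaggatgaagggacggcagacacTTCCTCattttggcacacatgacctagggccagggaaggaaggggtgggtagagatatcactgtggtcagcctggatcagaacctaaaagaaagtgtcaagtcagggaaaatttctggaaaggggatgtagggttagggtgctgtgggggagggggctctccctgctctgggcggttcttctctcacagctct
Fcer1g: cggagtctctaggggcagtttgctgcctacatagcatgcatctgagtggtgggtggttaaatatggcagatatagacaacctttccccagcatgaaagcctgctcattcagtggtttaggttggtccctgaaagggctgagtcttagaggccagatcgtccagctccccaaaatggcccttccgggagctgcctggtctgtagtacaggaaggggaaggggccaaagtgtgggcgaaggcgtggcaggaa
Lyz2: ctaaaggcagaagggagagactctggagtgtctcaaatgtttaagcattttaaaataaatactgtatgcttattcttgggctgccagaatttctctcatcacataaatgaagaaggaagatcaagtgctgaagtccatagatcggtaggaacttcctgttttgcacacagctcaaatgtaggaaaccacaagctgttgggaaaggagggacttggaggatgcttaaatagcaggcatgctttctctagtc

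The Mrc1 window held 3 cores, at 180, 167 and 35 bases before the start in the table. The Batf3 window held 1, 153 bases before it, and the C1qc window 1, 193 bases before it. The windows of Lgals3, Fcer1g and Lyz2 held 0. Promoter windows were matched for 26 of the 37 members, and 13 of these (50.0%) held the core on either strand in at least 1 window, against 25.9% of 27025 genes and 23.3% of 32851 windows of the same length. The longer motif GAGGAAGT, which contains the core, was found in 1 of the 26 (C1qc, 3.85%) and in 2.79% of all genes. These matches describe letters in a window and say nothing of binding. The message of Spi1 itself differed by -0.13 ± 0.07 (standard error) between males and females (limma adjusted p = 0.387).

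With both complements averaged, 5 of 37 members fell in male relative to female thymus and 0 rose. They were the iron exporter Slc40a1, the lectin Lgals3, the complement chain C1qa, the adhesion molecule Vcam1 and the signalling adaptor Tyrobp, and their levels in males were 0.735 to 0.843 times those in females. Of all 45037 probe sets, 1.35% fell and 1.48% rose, and of the 17925 with a mean of at least 5, 2.62% fell. The median difference of the members was -0.14, against 0.005 over all probe sets. The difference was below 0 for 33 of 37 (89.2%), against 47.8% of all probe sets, and below 0 in both complements for 26 (70.3%), against 24.5%. At an unadjusted p under 0.05, 15 members were lower and 0 higher, against 7.18% of all probe sets lower. The arrays of males and females overlapped for every member, whereas 0.693% of all probe sets were lower in every male than in every female array.

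Ferroportin, encoded by Slc40a1, exports iron from macrophages that have taken up dying cells. Its values in the 3 XX females were 8.37, 8.15 and 8.07, and in the XY- females 7.93, 7.86 and 8.00. In XXsry males they were 7.86, 7.80 and 7.66, and in XY-sry males 7.80, 7.08 and 7.51. All 3 XX females lay above every male array, and male and female arrays met at 7.86, in XY- female replicate 2 and XXsry male replicate 1. The gene fell in males by 0.45 ± 0.091 (standard error, 6 arrays against 6, limma adjusted p = 0.0156), and its other probe set differed by -0.40 (adjusted p = 0.016).

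The macrophage mannose receptor Mrc1, a scavenger receptor for glycoproteins, stood just outside the threshold. It measured 7.26, 6.95 and 7.25 in XX females, 7.09, 6.84 and 7.46 in XY- females, 6.90, 6.77 and 6.88 in XXsry males and 6.87, 6.64 and 6.79 in XY-sry males. Only XY- female replicate 2 lay among the males, which reached 6.90. The difference was -0.33 ± 0.088 (limma adjusted p = 0.0546), and it passed in 7 of 23 alternative analyses. The adhesion molecule Vcam1, which macrophages and stromal cells both display, had 9.72, 9.53 and 9.57 in XX females, 9.51, 9.46 and 9.70 in XY- females, 9.45, 9.26 and 9.38 in XXsry males and 9.52, 9.16 and 9.20 in XY-sry males. XY-sry male replicate 1 was the male array that overlapped the females. Vcam1 fell by 0.25 ± 0.062 (limma adjusted p = 0.0365), and its other probe sets differed by -0.28 and -0.21 (adjusted p = 0.0398 and 0.113).

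Among the other macrophage identity genes, no difference passed. Csf1r, the growth factor receptor on which most macrophages depend, differed by -0.20 ± 0.063 (limma adjusted p = 0.101), and its further probe sets by -0.18 and -0.11. Adgre1 differed by -0.24, the lysozyme gene Lyz2 by -0.14, the actin-bundling protein gene Aif1 by -0.12 and the endosomal glycoprotein gene Cd68 by -0.10 (adjusted p from 0.194 to 0.497). On the other side of 0 lay Cd5l, a secreted protein that Lxr receptors induce in tissue macrophages, and Hpgd, which breaks down prostaglandins. Cd5l read 5.51, 5.40 and 5.27 in XX females, 5.40, 4.99 and 5.58 in XY- females, 5.89, 5.37 and 5.84 in XXsry males and 5.59, 4.90 and 6.11 in XY-sry males. XY-sry males held both its highest and its lowest array, and the difference of 0.26 ± 0.16 did not pass (adjusted p = 0.482). Hpgd read 8.04, 7.88 and 7.95 in XX females, 7.74, 7.83 and 8.13 in XY- females, 8.12, 7.81 and 8.10 in XXsry males and 8.00, 7.93 and 8.10 in XY-sry males. The groups overlapped, at 0.08 ± 0.069 (adjusted p = 0.645). Over the 10 genes of macrophage identity and of iron or lipid handling, 2 fell and the median was -0.17.

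**Figure D1:**
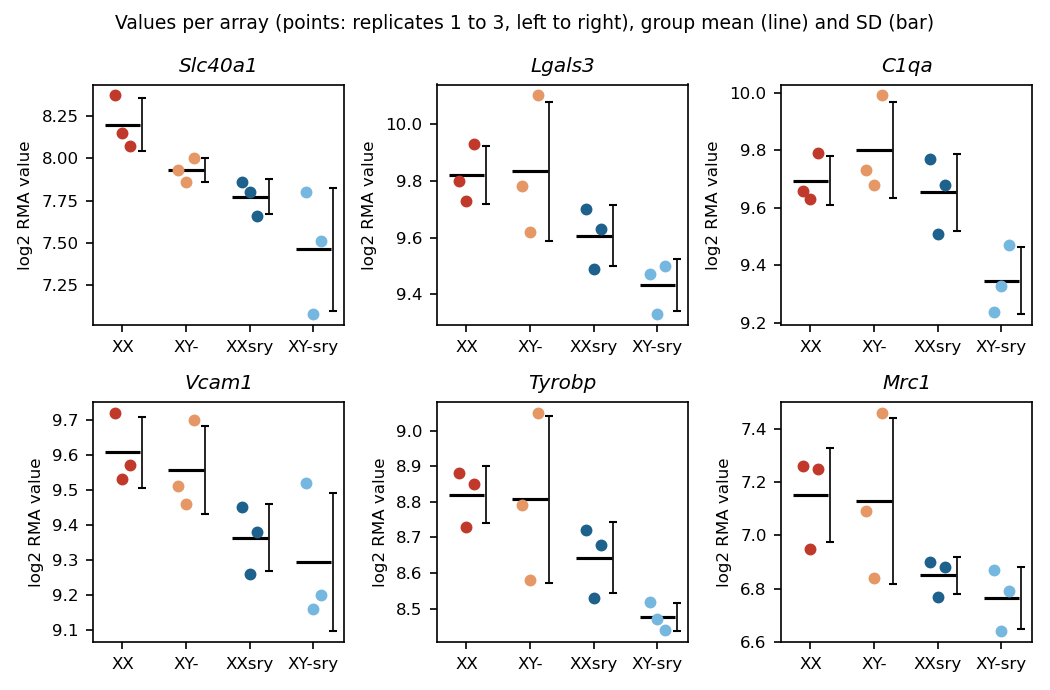
Log2 values (vertical axis, a separate scale in each panel) of the 5 members that fell in males and of Mrc1, for the 4 groups on the horizontal axis; points are arrays, horizontal lines are group means and bars are SD (n = 3). Slc40a1 means were 8.20 in XX females, 7.93 in XY- females, 7.77 in XXsry males and 7.46 in XY-sry males, and XY- female replicate 3 was the highest array for Lgals3, C1qa, Tyrobp and Mrc1.

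C1q bound to dying cells helps macrophages to take them up. C1qa was measured at 9.66, 9.63 and 9.79 in XX females, 9.73, 9.68 and 9.99 in XY- females, 9.77, 9.51 and 9.68 in XXsry males and 9.24, 9.33 and 9.47 in XY-sry males. The XY-sry males were below every other array, while the XXsry males overlapped the females. With complements averaged, C1qa fell by 0.25 ± 0.058 (limma adjusted p = 0.0323). C1qc had 8.81, 8.67 and 8.80 in XX females, 8.84, 8.63 and 9.09 in XY- females, 8.91, 8.54 and 8.71 in XXsry males and 8.51, 8.41 and 8.59 in XY-sry males. It had the same order of group means as C1qa, with a difference of -0.20 ± 0.072 (adjusted p = 0.173). C1qb, next to them, differed by -0.15 ± 0.069 (adjusted p = 0.314), and its other probe sets by -0.22 and -0.17. The median of the 3 chains was -0.195, and 1 fell.

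The genes for uptake of dying cells did not pass: the receptor kinases Axl and Mertk, which recognise phosphatidylserine through bridging proteins, differed by -0.14 and -0.11, and Timd4, which binds phosphatidylserine directly, by -0.25 (limma adjusted p from 0.339 to 0.706). Of the Fc receptor group, the adaptor gene Tyrobp (DAP12), which passes signals from myeloid receptors, fell. It measured 8.88, 8.73 and 8.85 in XX females, 8.79, 8.58 and 9.05 in XY- females, 8.72, 8.53 and 8.68 in XXsry males and 8.52, 8.47 and 8.44 in XY-sry males. XY- female replicate 2 was the female array that overlapped the males, and XY-sry males lay below all other arrays. The difference was -0.25 ± 0.063 (adjusted p = 0.041). The shared Fc receptor gamma chain Fcer1g, the IgG receptors Fcgr3 and Fcgr1 and the Src-family kinase Fgr lay at -0.21, -0.18, -0.23 and -0.12, none of them past the threshold (adjusted p from 0.188 to 0.368).

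Galectin 3 (Lgals3), a lectin that binds galactosides and is abundant in macrophages, belonged to the group of recognition and adhesion genes. Its values were 9.80, 9.73 and 9.93 in XX females, 9.78, 9.62 and 10.10 in XY- females, 9.70, 9.49 and 9.63 in XXsry males and 9.47, 9.33 and 9.50 in XY-sry males. The females and males overlapped between 9.62 and 9.70. Lgals3 fell by 0.31 ± 0.066 (limma adjusted p = 0.0207). Dectin 1 (Clec7a), a receptor for fungal glucans, and the endotoxin co-receptor Cd14 each differed by -0.08, and the integrin chain Itgam by -0.03 (adjusted p from 0.703 to 0.884). Itgam, known from macrophages and neutrophils alike, had a mean of 2.81, near the low end of the array values. The lysosomal proteases Ctsb and Lgmn differed by -0.05 and 0.04 (adjusted p = 0.732 and 0.898).

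None of the 10 dendritic cell members rose or fell with sex (limma; 1 lower and 0 higher at an unadjusted p under 0.05), and their median difference was -0.05. The gene at an unadjusted p under 0.05 was Batf3, at -0.21 ± 0.073 (adjusted p = 0.156). The costimulatory ligand gene Cd86 differed by -0.19 and Sirpa, which restrains phagocytosis when it meets CD47, by -0.16 (adjusted p = 0.345 and 0.387). The other Cd86 probe set differed by -0.21 (limma adjusted p = 0.167). Further Sirpa probe sets differed by -0.24 and -0.11 (limma adjusted p = 0.0577 and 0.378). The integrin CD11c gene Itgax, the cytokine receptor gene Flt3 and Irf8 lay within 0.03 of 0. Zbtb46, a transcription factor gene of conventional dendritic cells, had 4.23, 3.95 and 4.17 in XX females, 4.18, 4.35 and 3.91 in XY- females, 4.19, 4.13 and 4.18 in XXsry males and 4.24, 4.22 and 4.10 in XY-sry males. Males lay inside the range of the females, at a difference of 0.04 ± 0.082 (adjusted p = 0.867). The means of Xcr1, Zbtb46, Siglech and the lectin gene Clec10a were 3.92, 4.15, 4.57 and 4.71, close to the array medians. Irf8 had probe sets that disagreed within XY, at 0.00 for the one used and -0.33 for the other. With complements averaged, the other Irf8 probe set differed by -0.16 (limma adjusted p = 0.158). Whether dendritic and macrophage genes differed from each other in the sex effect was not tested.

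**Figure D2:**
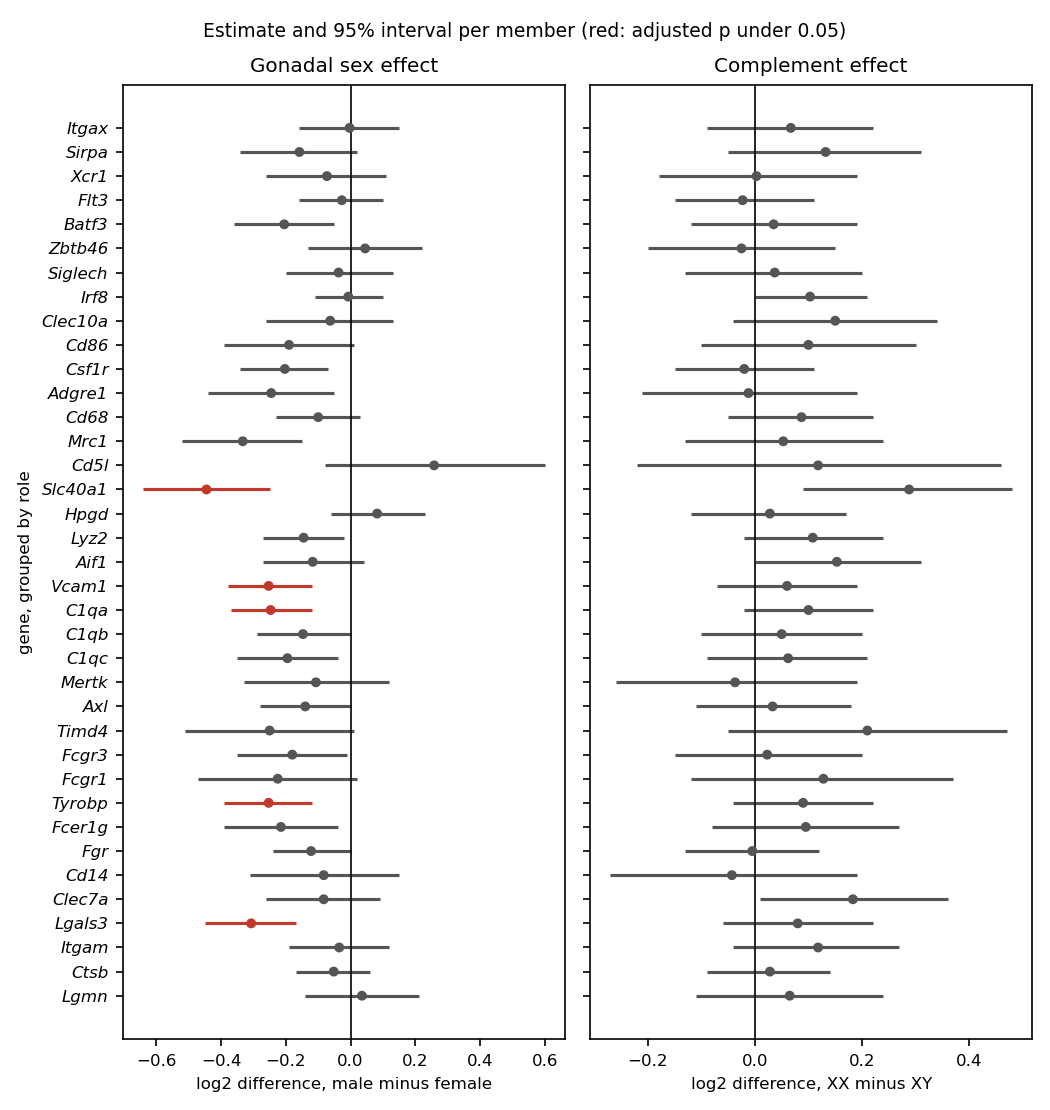
Estimated log2 difference (horizontal axes; male minus female on the left, XX minus XY on the right, on different scales) with 95% intervals for the 37 members, by role. Red marks an adjusted p under 0.05: 5 members on the left, all below 0, and 0 on the right.

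The number of members that fell with sex depended on single arrays. Without XY- female replicate 2 it was 9: the same 5 with Mrc1 at -0.41 (limma adjusted p = 0.00512), Adgre1 at -0.33 (0.0154), C1qc at -0.25 (0.0298) and Fcer1g at -0.28 (0.0308). It was 0 without XXsry male replicate 3, and 1 without XX female replicate 1, XX female replicate 3 or XXsry male replicate 2. It was 2 without XY-sry male replicate 2, and 3 without XX female replicate 2, XY- female replicate 1, XY-sry male replicate 1 or XY-sry male replicate 3. The fit without an intensity trend gave 1, and tests on probe sets with a mean of at least 5 in such a fit gave 2. Slc40a1 passed in 21 of 23 alternatives (adjusted p from 0.00234 to 0.0532) and Lgals3 in 19. C1qa, Vcam1 and Tyrobp passed in 13, 11 and 10. The median of the members stayed between -0.23 and -0.09.

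Within XX mice, 0 of 37 members changed between XXsry males and XX females (limma; 0.417% of all probe sets did), with 6 lower and 0 higher at an unadjusted p under 0.05, against 4.40% of all probe sets lower. The median was -0.12. Slc40a1 had the difference with the smallest p, at -0.42 ± 0.129 (adjusted p = 0.26), followed by Vcam1 at -0.24 (adjusted p = 0.386). The arrays of males lay below all those of females for 11 members, against 7.39% of all probe sets: Xcr1, Batf3, Mrc1, Slc40a1, Vcam1, Timd4, Fcgr3, Tyrobp, Fgr, Lgals3 and Itgam. On the higher side were Cd5l at 0.31 (adjusted p = 0.773) and Itgax at 0.10 (adjusted p = 0.856). Itgax read 6.23, 6.12 and 6.25 in XX females and 6.46, 6.22 and 6.21 in XXsry males, with 6.09, 6.23 and 6.38 in XY- females and 6.0, 6.31 and 6.08 in XY-sry males. Its groups overlapped throughout.

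Within XY mice, 3 of 37 members fell in XY-sry males relative to XY- females and 0 rose, against 2.51% of all probe sets lower. C1qa fell by 0.45 ± 0.082 (3 arrays against 3, limma adjusted p = 0.00521), Lgals3 by 0.40 ± 0.094 (adjusted p = 0.0231) and Tyrobp by 0.33 ± 0.089 (adjusted p = 0.0486). Slc40a1 differed by -0.47 and C1qc by -0.35, and neither passed (adjusted p = 0.0535 and 0.065). The arrays of males lay below all those of females for 6 members, namely these 5 and Fcgr1, against 8.00% of all probe sets. The members with the smallest p above 0 were Hpgd at 0.11 and Cd5l at 0.21 (adjusted p = 0.649 and 0.725), and the median of all members was -0.17. Without XY- female replicate 2 the count was 8: the same 3 with C1qc at -0.46 (adjusted p = 0.00994), Adgre1 at -0.54 (0.0106), Mrc1 at -0.51 (0.0166), Axl at -0.36 (0.034) and Cd14 at -0.49 (0.0433), while Slc40a1 did not pass (0.0596). The count was 1 without XY- female replicate 3, XY-sry male replicate 2 or XY-sry male replicate 3. C1qa passed in each of the 24 alternatives (adjusted p from 6.96e-04 to 0.0488). Over all probe sets 677 rose and 1132 fell in this comparison, and 1028 rose and 1015 fell once the array medians had been set equal.

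**Figure D3:**
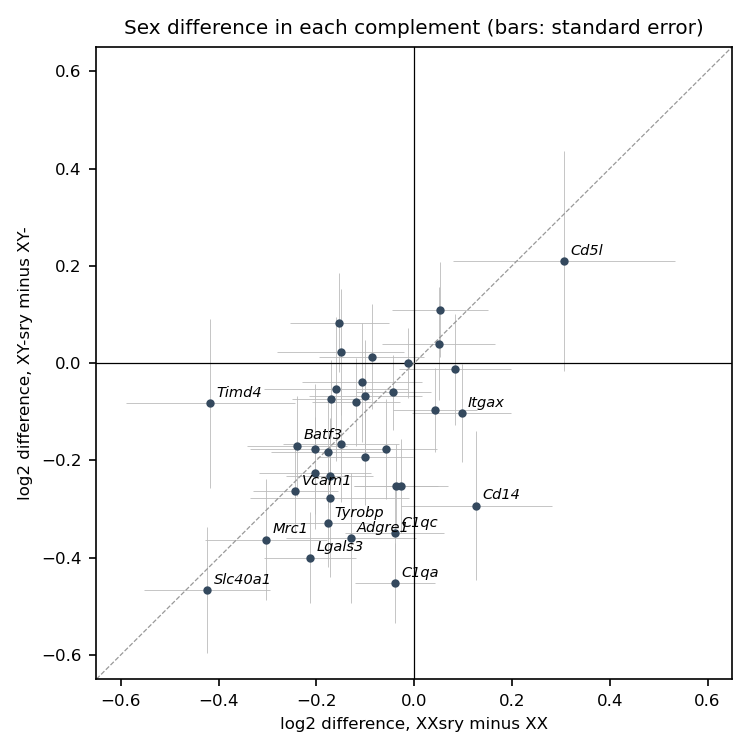
Log2 difference between XXsry males and XX females (horizontal axis) against that between XY-sry males and XY- females (vertical axis) for the 37 members; points are members, bars are standard errors, and the dashed line marks equal differences. The axes share no arrays, and 26 members lie below 0 on both, among them Slc40a1 at -0.42 and -0.47, while C1qa lies at -0.04 in XX and -0.45 in XY.

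The difference between these comparisons was tested as the interaction, the difference between XX and XY in females less the same difference in males. No member passed (limma, 0 of 37, against 1.00% of all probe sets). In simulated data the fit recovered 37.5% of interaction differences of 0.5 and 0.5% of those of 0.3. C1qa had the smallest p, at -0.41 ± 0.117 (adjusted p = 0.135), and C1qc followed at -0.31 ± 0.143 (adjusted p = 0.497). At an unadjusted p under 0.05, these 2 were lower and 0 were higher, against 5.20% of all probe sets lower. On the other side lay Itgam at 0.24 and Timd4 at 0.33 (adjusted p = 0.658 and 0.731). C1qa passed in 2 of 23 alternatives (adjusted p from 0.0283 to 0.351).

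Averaged over gonadal sex, 0 of 37 members rose or fell between XX and XY arrays (limma), against 0.0622% of all probe sets. At an unadjusted p under 0.05, 2 members were higher in XX and 0 lower, against 2.12% of all probe sets higher. The median was 0.065, against 0 over all probe sets. Differences were above 0 for 30 of 37 members, against 22615 of 45037 probe sets. Slc40a1 was again the member with the smallest p, at 0.29 ± 0.091 (adjusted p = 0.998, 95% interval 0.09 to 0.48), followed by Clec7a at 0.18 ± 0.081 and Aif1 at 0.15 ± 0.073 (adjusted p = 0.998 for both). Clec7a had 8.39, 8.25 and 8.34 in XX females, 8.39, 8.05 and 8.24 in XXsry males, 8.05, 7.87 and 8.46 in XY- females and 8.14, 7.98 and 8.06 in XY-sry males. XY- female replicate 3 was the highest of all, and the groups overlapped.

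Aif1 had 7.22, 7.05 and 7.10 in XX females, 7.25, 6.94 and 7.01 in XXsry males, 7.04, 6.81 and 7.24 in XY- females and 6.90, 6.76 and 6.90 in XY-sry males. All 3 XY-sry males lay below every XX array. Below 0 were Cd14 at -0.04 ± 0.109, Mertk at -0.04 ± 0.105 and Flt3 at -0.02 ± 0.061 (adjusted p = 0.998 for each). Flt3 had 5.68, 5.71 and 5.60 in XX females, 5.79, 5.72 and 5.61 in XXsry males, 5.81, 5.61 and 5.85 in XY- females and 5.66, 5.65 and 5.67 in XY-sry males. Mertk had 6.01, 5.62 and 5.79 in XX females, 5.73, 5.32 and 5.89 in XXsry males, 5.87, 5.63 and 5.87 in XY- females and 5.72, 5.50 and 5.99 in XY-sry males. The groups of both genes overlapped. Fgr probe sets disagreed here, at 0.00 for the one used and 0.23 for the other (adjusted p = 0.998 for both).

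Within females, 0 of 37 members changed with complement (limma, against 0.0755% of all probe sets). At an unadjusted p under 0.05, 2 were higher in XX and 0 lower, against 4.15% of all probe sets higher. Itgam at 0.24 and Timd4 at 0.38 had the smallest p above 0, and Cd14 at -0.25 and C1qa at -0.11 below it (adjusted p = 0.553, 0.587, 0.722 and 0.803). Timd4 read 6.05, 5.65 and 5.57 in XX females and 5.31, 5.11 and 5.72 in XY- females, with 5.56, 5.02 and 5.44 in XXsry males and 5.37, 5.48 and 5.04 in XY-sry males. XX female replicate 1 was the highest of its 12 arrays. Cd14 read 5.51, 5.47 and 5.39 in XX females and 5.71, 5.31 and 6.11 in XY- females, with 5.58, 5.40 and 5.77 in XXsry males and 5.40, 5.27 and 5.58 in XY-sry males. The XY- females spanned almost the whole range of the gene. Itgam read 2.91, 2.99 and 2.95 in XX females and 2.88, 2.58 and 2.68 in XY- females, with 2.85, 2.73 and 2.81 in XXsry males and 2.90, 2.91 and 2.58 in XY-sry males. The XX females lay above all XY- females.

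Within males, 0 of 37 members changed with complement (limma, against 0.151% of all probe sets). The count at an unadjusted p under 0.05 was 4 higher in XX and 0 lower, against 3.78% of all probe sets higher. C1qa was higher in XXsry than in XY-sry males in every array, at 0.31 ± 0.082, and did not pass (adjusted p = 0.219). Lyz2 followed at 0.22 ± 0.086 (adjusted p = 0.606). It read 10.96, 10.78 and 10.97 in XXsry males, 10.74, 10.48 and 10.84 in XY-sry males, 10.95, 10.92 and 10.95 in XX females and 10.85, 10.82 and 11.15 in XY- females. The male groups overlapped between 10.78 and 10.84. Below 0 were Fgr at -0.05 and Mertk at -0.09 (adjusted p = 0.972 and 0.973). Fgr read 5.96, 6.12 and 6.07 in XXsry males, 6.03, 6.17 and 6.11 in XY-sry males, 6.24, 6.19 and 6.23 in XX females and 6.09, 6.14 and 6.30 in XY- females, with male groups that overlapped.

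Many members were high or low in the same arrays. XY- female replicate 3 was the highest array for 21 of 37 members and XY-sry male replicate 2 the lowest for 17. XY- female replicate 3 exceeded XY- female replicate 2 in 35 members, with a median difference of 0.36. The mean over all members of the centred log2 values, used as a score, ran from -0.110 to 0.232 in females and from -0.195 to 0.089 in males. Correlations between members were taken for the 32 with a mean of at least 5. With group means removed, each of these was correlated over the 12 arrays with the mean of the others. The arrays share their RNA and normalization, so this is a description only. The correlation was 0.98 for Clec7a, 0.963 for Fcer1g and 0.961 for C1qc, 0.433 for Slc40a1, 0.309 for Itgax, 0.10 for Fgr and 0.0145 for Batf3. Each role's genes are part of the score of all members, so a high correlation of roles with it was partly built in. Scores of the roles followed that score at 0.839 to 0.964. Scores of other cell types correlated with it at 0.862 for natural killer and innate-like T cell genes, 0.79 for epithelium, 0.781 for endothelium, 0.753 for fibroblasts, 0.694 for B cells and 0.568 for neutrophils. The correlation was below 0 for lymph node stroma (-0.135), thymocytes (-0.209), red cells (-0.403) and fat (-0.515).

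**Figure D4:**
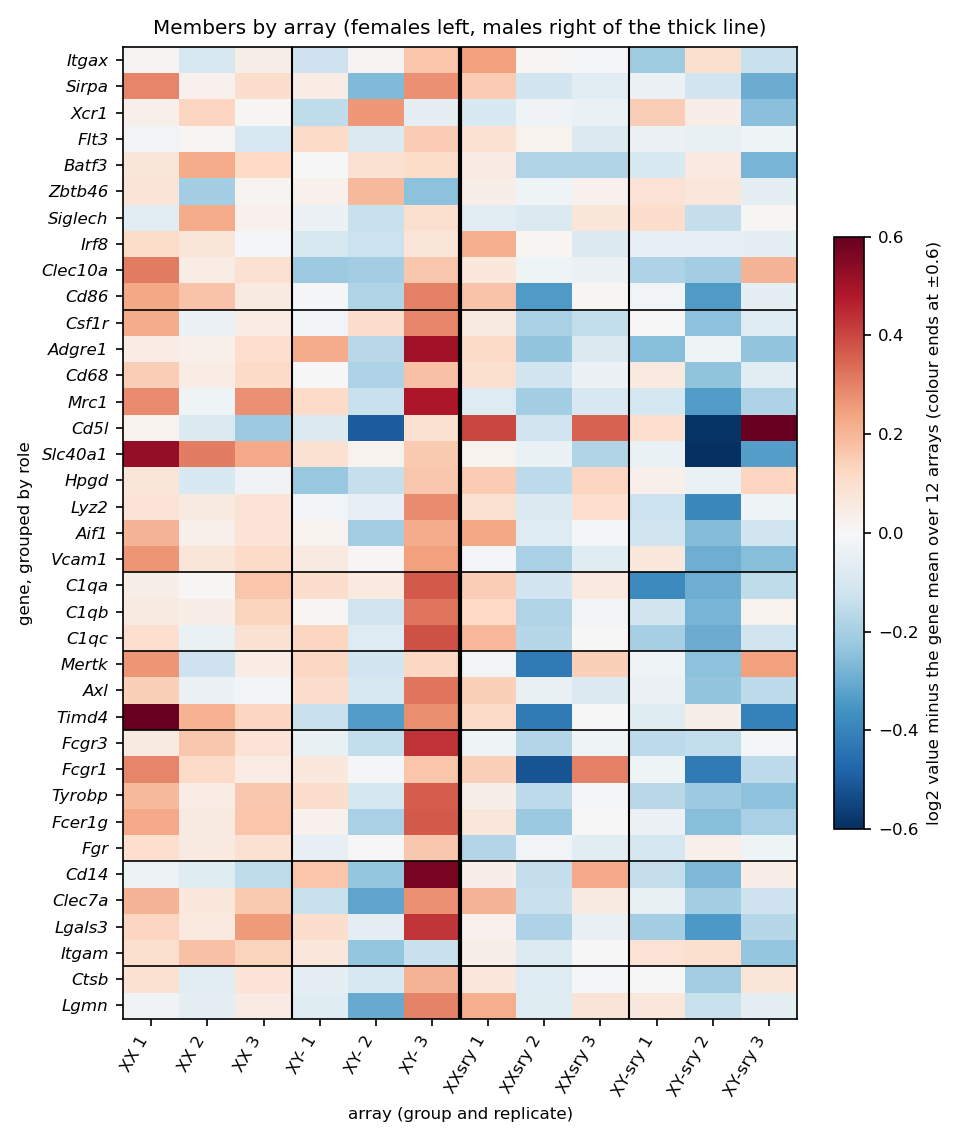
Log2 value minus the gene's mean over 12 arrays (colour, ending at 0.6 above and below the mean) for the 37 members (rows, grouped by role) in each array (columns; females left and males right of the thick line). XY- female replicate 3 is red for most members, where it was highest for 21 of 37, and XY-sry male replicate 2 is blue for most, where it was lowest for 17.

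Markers of several other cell types changed with sex as well, where 1.35% of all probe sets fell and 1.48% rose. Neutrophil genes were lower in males, with 3 of 9 past the threshold (S100a8, Camp and Elane) and a median of -0.505. Their summed linear level ran from 484 to 1566 in females and from 235 to 610 in males. Mpo and Cxcr2 were near the bottom of the range at means of 3.53 and 2.76. Elane, which passed, averaged 4.17, close to the array medians. Neutrophils share Tyrobp, Fcer1g, Itgam, Fgr and Clec7a with macrophages. Of B cell genes, 4 of 9 fell (median -0.25), and the summed level was 5104 to 7505 in females and 3819 to 5634 in males. Of natural killer and innate-like T cell genes, 4 of 7 fell and 1 rose (median -0.365), with summed levels of 728 to 861 and 726 to 802. The gene that rose was Gzma. The score, which weights genes equally, separated the sexes, at 0.087 to 0.342 in females and -0.343 to -0.196 in males. Fibroblast genes went the other way, with 4 of 8 higher in males (median 0.25), as did endothelial genes with 1 of 8 (median 0.21). Thymocyte genes had 1 of 9 lower (median -0.08), at 12543 to 13888 in females and 12279 to 12963 in males. On the list for lymph node stroma, 1 of 6 genes (Ltb) fell (median -0.12). The score of that list was 0.030 to 0.083 in females and -0.104 to 0.005 in males, with no overlap. Ltb averaged 9.62 and the other genes 2.77 to 4.42, and Cr2 and Fcer2a are on the B cell list too. The list therefore does not single out stroma. None of 8 epithelial, 6 fat and 5 red cell genes changed (limma), with medians of 0.04, -0.15 and 0.04. Many of these values were low: 3 of 6 fat, 1 of 5 red cell and 3 of 8 endothelial genes averaged 5 or more. At an unadjusted p under 0.05, 3 epithelial genes were higher and 1 lower, 1 fat gene was lower and 0 red cell genes differed. The part of these cells in the differences of the members was not tested.

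**Figure D5:**
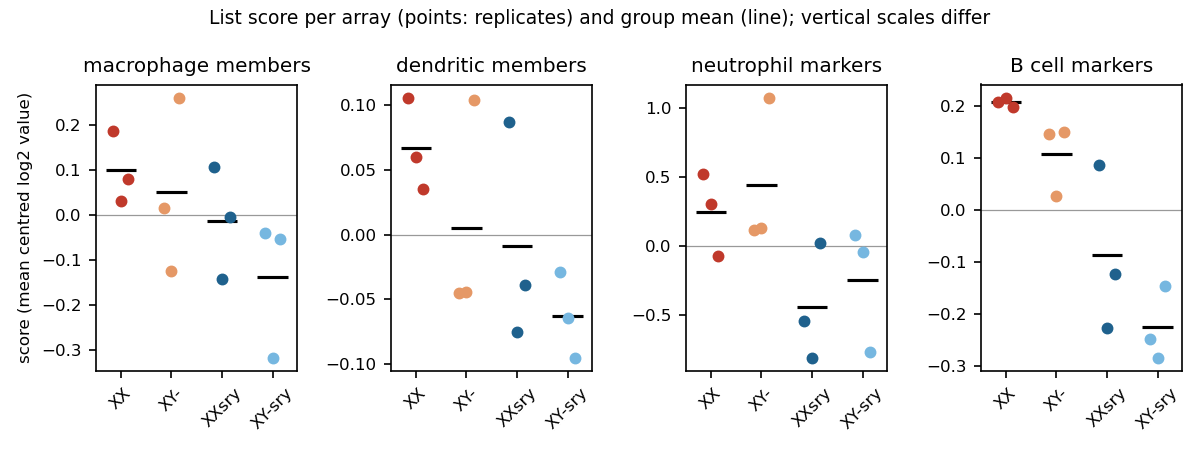
Mean centred log2 value per array (vertical axis, a separate scale in each panel) for the 10 macrophage members, the 10 dendritic members, 9 neutrophil markers and 9 B cell markers in the 4 groups; points are replicates and lines group means. The neutrophil score spans -0.807 to 1.073, and the highest array in it is XY- female replicate 3.

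Of 65 further myeloid genes that cover growth factors, transcription factors and cell type markers, 60 were measured. With sex, 8 fell in males (13.3%, against 1.35% of all probe sets) and 1 rose, and the median was -0.065. Among transcription factor genes, Id2, which blocks E proteins and is needed by dendritic and innate lymphoid cells, fell by 0.61 ± 0.064 (limma adjusted p = 6.46e-05). It had 8.79, 8.89 and 8.79 in XX females, 8.82, 8.56 and 8.92 in XY- females, 8.42, 8.14 and 8.30 in XXsry males and 8.23, 8.02 and 7.98 in XY-sry males. All males lay below all females. Maf, known in macrophages and T cells, fell by 0.37 (adjusted p = 0.00344), also with no overlap of the arrays, and Irf4 by 0.48 (adjusted p = 0.00599).

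Of the dendritic cell genes on that list, 4 of 15 fell: the tetherin gene Bst2 by 0.25, the migration receptor gene Ccr7 by 0.33, the chemokine gene Ccl22 by 0.30 and the lectin gene Cd209a by 0.30 (limma adjusted p = 0.00951, 0.0216, 0.0399 and 0.0403). Bst2 and Ccr7 were lower in every male array than in every female one. Which cells of the unsorted thymus carried these differences was not tested. S100a4, a calcium-binding protein of monocytes and many other cells, fell by 0.37 (adjusted p = 0.0198). Of the 17 macrophage genes on that list, which include Gas6 and Cd36, 0 fell and 1 rose (limma), with a median of 0.003. With an unadjusted p under 0.05, 5 of the 17 were higher and 5 lower, against 8.71% and 7.18% of all probe sets. The gene that rose was Gas6, the bridging ligand of Axl and Mertk, at 0.23 ± 0.054 (adjusted p = 0.0323). Gas6 had 8.96, 8.96 and 8.76 in XX females, 9.01, 8.86 and 9.16 in XY- females, 9.30, 9.22 and 9.18 in XXsry males and 9.19, 9.01 and 9.17 in XY-sry males, with XY- females overlapping the males. The scavenger receptor gene Cd36 at 0.40 and the transcription factor gene Cebpa at 0.21 came next on the higher side (adjusted p = 0.0938 and 0.128). None of 5 growth factor and receptor genes and 6 signalling genes changed (limma; 0 at an unadjusted p under 0.05). Complement changed 0 of the 60 (limma; 1 higher and 0 lower at an unadjusted p under 0.05).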

How the data were processed

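Thymus RNA from 4 groups of 3 mice was measured on 12 arrays. The files hold log2 values per probe set, which the authors computed by RMA before depositing them, according to the submitters' processing notes, with no version stated there. Control probe sets (64 of 45101) were left out. The platform table gave 1 gene symbol to 34945 of the remaining 45037 probe sets, several to 932 and none to 9160. Group means were fitted with limma 3.58.1 in R 4.3.3 (intensity trend, no filter) on all arrays together. Contrasts were adjusted by Benjamini-Hochberg over all probe sets, and the fit was tested on simulated data. Simulated log2 differences of 0.5 were recovered in 87% for gonadal sex, 88.5% for complement and 37.5% for the interaction. At 0.3 the shares were 54%, 54% and 0.5%, so most interaction differences of these sizes were missed. Figures used matplotlib 3.10.9. Array values are given for members past the threshold or with the 3 smallest p in each direction of the averaged effects (2 for other contrasts); Mrc1, the further myeloid genes given by array and the promoters shown were chosen after their values were seen. The members and gene lists were chosen with earlier results of these data known. Alternatives covered the trend, filters, scaling, weights, thresholds, an actin covariate, a block for the replicate number and the omission of single arrays.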

Additional observations from a re-analysis of the deposited data

How the results depend on the processing

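No called difference changed direction under any alternative. Of 344 alternative values of counts and medians, 311 stayed the same by the rule of 1.5 times or 1 SD. The main counts were less stable than this total. The number of members called changed in 16 of 25 alternatives for gonadal sex and in 11 of 26 for sex in XY. For the averaged complement effect it changed in 0 of 25. For the gonadal sex effect, the 5 members called became 1 with no intensity trend, 2 with a mean of at least 5 before the fit, 2 with median centring, 8 with array weights, 8 with the actin covariate and 0 where a log2 difference of 0.5 was required too, and ran from 0 to 9 with 1 array left out. For sex in XY, the 3 called became 1 with no intensity trend, 5 with quantile normalization, 7 with array weights, 1 with only the groups compared, 5 at an adjusted p under 0.1 and 0 where a log2 difference of 0.5 was required too, and ran from 1 to 8 with 1 array left out. With the actin covariate the medians were -0.316 for sex in XY and -0.197 for the interaction. Array weights called 1 member in the interaction, and only the groups compared called 1 for sex in XX. The cause was not tested. Nothing in the labels ties arrays of one number, and the deviations were not correlated in every same-number pair: the correlations ran from -0.0827 to 0.306 (median 0.0413), with 8 of 18 pairs over 0.1, against 4 of 36 pairs of different numbers (median -0.0216), so the numbers were not taken as pairs. As a hint from the data, 8 of 12 arrays correlated best with their own number. With it as a replicate block, 6 members were called for gonadal sex, 8 for sex in XY, 1 (C1qa) for the complement effect in males and 1 (C1qa) for the interaction.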
